A study of Mus musculus with 24 samples.

Results

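The ubiquitin-specific proteases were followed across meiosis in mouse testis, with and without the germ cell gene Nutm1. The family was taken as every gene whose array symbol is Usp followed by digits and at most 2 further letters, which gave 52 of the 19057 named genes on the array, covered by 128 probes. Of these, 33 genes had a probe detected above background (detection p under 0.01) on at least 3 of 12 arrays and were tested, and 19 did not. A symbol rule also takes in Usp6nl, which encodes a GTPase-activating protein for Rab5 and is no protease.

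RNA came from adult male mice on a B6/129sv background that were either wild type (WT) or Nutm1 knockout (KO; the labels say KO and the series' design text says knock down). Spermatocytes, the cells in meiosis, and round spermatids, the haploid cells that follow, were enriched by sedimentation of whole testis cell suspensions through an albumin gradient, from 2 WT or 3 KO mice pooled per fractionation. Each of the 4 groups held 6 Illumina bead arrays, of which numbers 1 to 3 each hold 1 fractionation and numbers 4 to 6 hold RNA of those 3 mixed in pairs, so that n was 3 per group in every test and p-values measure the spread between fractionations. In such bulk fractions, fewer cells of a type and less RNA per cell cannot be told apart.

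Ubiquitin is attached to proteins by a cascade of E1, E2 and E3 enzymes and is removed by deubiquitinases, of which the ubiquitin-specific proteases are the largest family in mammals. These cysteine proteases recycle free ubiquitin, spare their substrates from the proteasome, or remove the single ubiquitin that marks histones H2A and H2B. In the testis, histone ubiquitination accompanies the silencing of the sex chromosomes in spermatocytes and the removal of histones from spermatid chromatin, the step in which Nutm1, a partner of the acetyltransferases p300 and CBP, takes part.

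Signal is given as log2 of the background-corrected and quantile-normalized intensity of the gene's brightest probe, so that 1 unit is a doubling, and levels of different genes cannot be set against each other. A difference passed when its adjusted p (limma moderated test, Benjamini-Hochberg over all 12705 genes and unnamed probes tested) was under 0.05. Nutm1 itself read 6.81, 6.75 and 7.03 in KO round spermatids and 8.52, 8.40 and 8.18 in WT ones, and its KO minus WT value was -1.50 ± 0.24 (SE, adjusted p = 0.00156, limma). It was low in spermatocytes of both genotypes (5.51 to 5.69 in KO and 5.76 to 6.89 in WT), and where its probe lies relative to the deleted part is not given in the sources used here. Direct arrays detected 13849 to 16244 of 45281 probes each, with a median deposited signal of 136 to 171. In round spermatids, WT arrays detected fewer probes (15266, 14216 and 13849) than KO arrays (15795, 15773 and 15524), with no overlap. The part of this in calls and detection counts near background was not tested.

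The fractions carried their labels' markers, with some overlap of stages. Over 12 measured round spermatid markers the mean signal was 12.64 to 12.80 in WT and 12.36 to 12.58 in KO round spermatids, against 10.97 to 11.90 in WT and 11.24 to 11.31 in KO spermatocytes, where Camk4 was the only one detected on no array of either genotype. The 9 measured spermatocyte markers averaged 10.34 to 10.47 in WT and 10.04 to 10.67 in KO spermatocytes, and 9.32 to 9.71 across the 6 round spermatid arrays. Leydig cell markers ranged from 7.48 to 11.996 among the 3 KO spermatocyte arrays, and from 9.67 to 10.68 among the WT ones.

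Of the promoters in RefSeq's table for mouse build GRCm38.p6, 40 belonged to 39 of the 52 genes. The 6 genes that passed in KO against WT are shown, because they are the members whose level moved with the genotype. Each line gives the 250 bases before the annotated start, 5′ to 3′ on the gene's strand, and capitals mark every match on either strand. The TATA box was searched as TATAAA. The cyclic AMP response element was searched as TGACGTCA and its core as TGACG, which lies within the full element. The CCAAT box was searched by the letters of its name. The GC box was searched as GGGCGG, and neighbouring GC boxes may overlap.
Usp45 (chr4:21776020-21776269, plus strand): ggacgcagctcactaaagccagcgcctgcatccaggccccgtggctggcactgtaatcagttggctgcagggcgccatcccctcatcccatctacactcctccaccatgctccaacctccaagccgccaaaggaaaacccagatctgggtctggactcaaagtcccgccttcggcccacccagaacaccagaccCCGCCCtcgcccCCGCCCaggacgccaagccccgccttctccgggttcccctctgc
Usp46 (chr5:74068412-74068661, minus strand): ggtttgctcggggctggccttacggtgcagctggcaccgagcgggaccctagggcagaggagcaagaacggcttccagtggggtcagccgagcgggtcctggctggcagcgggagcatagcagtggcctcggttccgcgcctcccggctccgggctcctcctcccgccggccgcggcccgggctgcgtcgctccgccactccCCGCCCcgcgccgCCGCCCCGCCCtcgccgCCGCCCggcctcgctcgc
Usp49 (chr17:47630440-47630689, plus strand): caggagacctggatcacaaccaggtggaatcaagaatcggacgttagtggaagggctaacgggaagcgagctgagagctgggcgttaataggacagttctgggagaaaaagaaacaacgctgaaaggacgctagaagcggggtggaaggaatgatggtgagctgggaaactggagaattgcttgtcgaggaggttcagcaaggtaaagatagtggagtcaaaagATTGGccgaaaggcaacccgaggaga
Usp25 (chr16:77013819-77014068, plus strand): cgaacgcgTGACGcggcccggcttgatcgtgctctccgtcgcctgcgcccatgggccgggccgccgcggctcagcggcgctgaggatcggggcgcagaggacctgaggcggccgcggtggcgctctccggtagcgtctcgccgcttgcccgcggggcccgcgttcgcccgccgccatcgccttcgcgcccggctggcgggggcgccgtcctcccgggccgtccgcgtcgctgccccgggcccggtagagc
Usp19 (chr9:108490426-108490675, plus strand): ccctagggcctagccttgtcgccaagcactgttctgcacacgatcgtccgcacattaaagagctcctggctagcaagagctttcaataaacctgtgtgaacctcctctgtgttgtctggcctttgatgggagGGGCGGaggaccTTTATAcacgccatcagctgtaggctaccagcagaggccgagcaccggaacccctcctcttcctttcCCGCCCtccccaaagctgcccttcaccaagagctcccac
Usp36 (chr11:118290245-118290494, minus strand): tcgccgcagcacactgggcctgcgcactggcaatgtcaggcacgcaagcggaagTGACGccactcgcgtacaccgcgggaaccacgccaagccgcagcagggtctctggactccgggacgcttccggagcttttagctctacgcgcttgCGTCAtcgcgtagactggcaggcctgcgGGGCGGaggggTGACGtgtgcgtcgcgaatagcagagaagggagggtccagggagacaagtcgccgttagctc

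The promoters of the 4 genes that were lower in KO round spermatids had little in common by these letters. Usp45 held 2 GC boxes and 13 CpG, Usp46 held 4 GC boxes and 33 CpG, Usp49 held a single CCAAT box and 11 CpG, and Usp25 held 1 TGACG core and 47 CpG. Of the genes that were higher, Usp19 held the only TATAAA match among the 6, along with 2 GC boxes and 9 CpG. That match lies on the strand opposite to the gene (TTTATA), so it is not a TATA box in the gene's own direction. Usp36 held 3 TGACG cores, 1 GC box and 28 CpG. Across the 40 Usp promoters the median was 21 CpG, against 6 over all 32851 promoters of the table, and 24 of 40 held a GC box, against 32.7% of all. CCAAT was present in 12 of 40 (33.8% of all), the TGACG core in 9 (17.8% of all), TATAAA in 5 (12.4% of all) and the full TGACGTCA in 0 (1.55% of all). These matches are letters in a window and were not tested as binding sites.

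KO was set against WT in round spermatids to ask what the haploid cell loses or gains without Nutm1. Usp45 was 5.1-fold lower in the KO, Usp46 was 2.96-fold, Usp49 1.93-fold and Usp25 1.8-fold lower, while Usp19 was 1.63-fold higher and Usp36 was higher by at least 1.09-fold. These were 6 of 33 members, or 18.2%, with 4 lower and 2 higher, in a comparison in which 14.9% of all features passed (7.99% lower and 6.89% higher). The family's share was near the background. The median difference over the 33 members was 0.18 on the log2 scale and that over all features 0.12.

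Usp45, which in human cells removes ubiquitin from the DNA repair nuclease subunit ERCC1, read 10.23, 10.21 and 10.65 on the 3 arrays of WT round spermatids. In KO round spermatids it read 7.86, 8.02 and 8.16. All KO arrays lay more than 2 units below all WT arrays, with a difference of -2.35 ± 0.26 (SE, n = 3 per group, adjusted p = 6.56e-05, limma). Usp46, a relative of Usp12 that works with the activator proteins Wdr48 and Wdr20, read 8.69, 9.21 and 8.87 in WT and 7.08, 7.55 and 7.45 in KO. The groups did not overlap, and the difference was -1.56 ± 0.30 (SE, n = 3, adjusted p = 0.00489, limma). Both calls held under all 15 alternative settings of processing and left-out arrays.

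Usp46 had another probe above background, and it did not follow. That probe read 7.01, 6.74 and 7.17 in WT and 6.54, 6.98 and 6.95 in KO round spermatids, and its KO minus WT value was -0.15 ± 0.25 (SE, adjusted p over probes = 0.736, limma). The table lists no transcript accession for it, and which transcript each Usp46 probe reads was not tested. Usp45, Usp49 and Usp25 each had a single probe above background.

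Usp49, reported in human cells to remove ubiquitin from histone H2B, read 9.14, 9.26 and 9.79 in WT round spermatids. It read 8.42, 8.59 and 8.34 in KO round spermatids, all below the lowest WT array, and the difference was -0.95 ± 0.22 (SE, n = 3, adjusted p = 0.0139, limma). Without WT replicate 3 the difference was -0.75 (adjusted p = 0.063) and without KO replicate 3 it was -0.89 (adjusted p = 0.0594), so that the call was lost. Usp25, which acts in degradation of proteins from the endoplasmic reticulum and in cytokine signalling, was dim, at 6.30, 6.62 and 7.19 in WT and 5.81, 5.95 and 5.80 in KO. It was detected on all 6 of these arrays, the groups did not overlap, and the difference was -0.85 ± 0.26 (SE, n = 3, adjusted p = 0.0456, limma).

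Usp19, an enzyme anchored in the endoplasmic reticulum, read 11.64, 11.43 and 11.34 in KO and 10.93, 10.50 and 10.87 in WT round spermatids. The groups lay apart by less than 1 unit, with a difference of 0.70 ± 0.21 (SE, n = 3, adjusted p = 0.0452, limma), and its other probe gave 0.71 (adjusted p over probes = 0.0343). Usp36, a nucleolar enzyme that acts in ribosome production, read 6.02, 5.87 and 5.85 in KO, and 5.55, 4.78 and 4.68 in WT, where no array detected it. Its fitted difference was 0.91 ± 0.23 (SE, n = 3, adjusted p = 0.0211, limma), and its other probe gave 0.81 (adjusted p over probes = 0.0196). The bound of 1.09-fold compares the KO mean with the dimmest signal detected on each WT array.

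The calls of Usp25, Usp19 and Usp36 held without WT replicate 1 and were lost without any other single array of these groups. Leaving out WT replicate 2 or 3, or any 1 of the KO replicates, raised the adjusted p of each above the threshold, to between 0.0552 (Usp36) and 0.168 (Usp25). The number of members passing ranged from 2 to 9 over these left-out arrays. It was 2 without WT replicate 3 or without KO replicate 3, 3 without WT replicate 2, KO replicate 1 or KO replicate 2, and 9 without WT replicate 1, where Usp22 (1.06), Usp33 (1.25) and Usp9y (0.80) were added. With the arrays scaled by cyclic loess, which moved the median of all features from 0.12 to -0.02, 3 members passed, all lower. The same-direction values under that scaling were 0.59 for Usp19, 0.62 for Usp36 and -0.80 for Usp25. Shares of all features that passed under that scaling or with arrays left out are not given here. The counts therefore show nothing particular to the family.

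**Figure D1:**
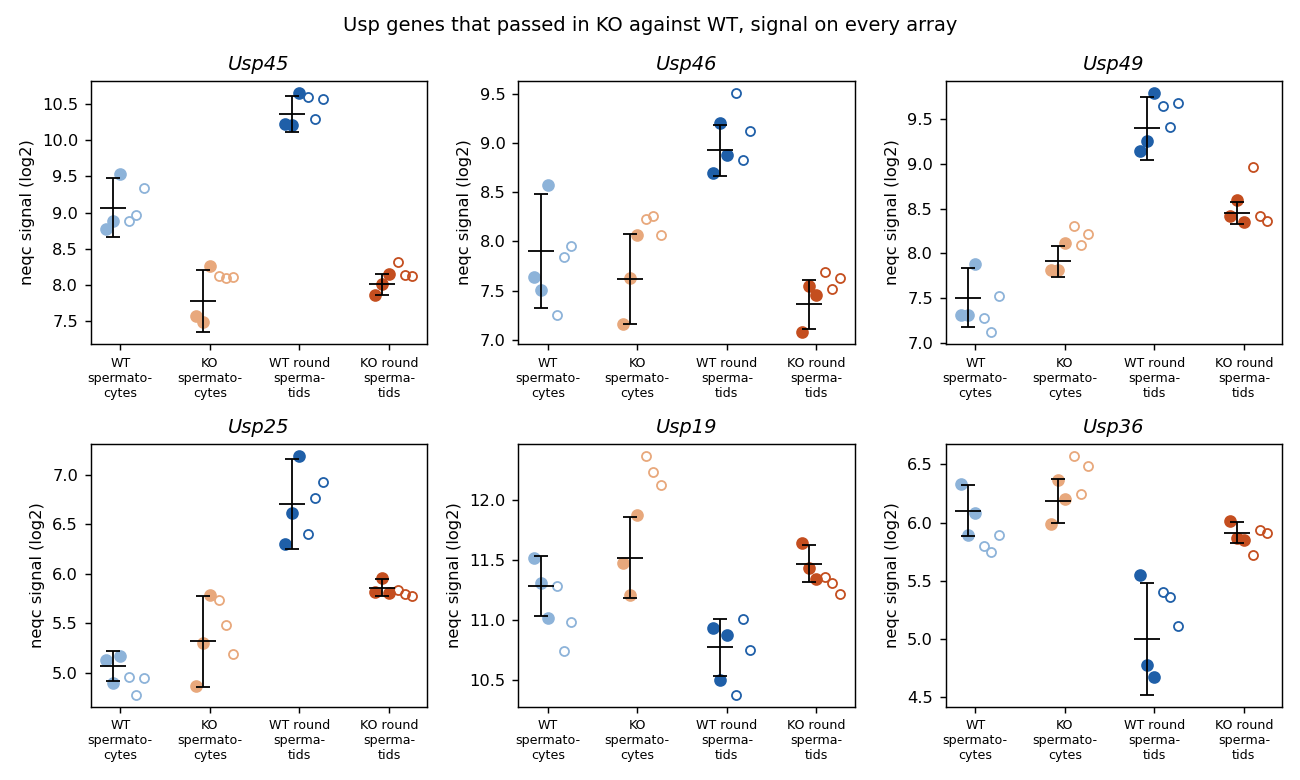
Signal (log2, each panel with its own axis) of the 6 Usp genes that passed in KO against WT on every array. Filled points are the 3 direct arrays of a group, with bars for their mean ± SD, and open points are the 3 arrays of mixed RNA; in round spermatids Usp45, Usp46, Usp49 and Usp25 lie lower in the KO and Usp19 and Usp36 higher.

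The mixtures, which share their RNA with the direct arrays and add no replicate, ran the same way for these genes in round spermatids. Usp45 read 10.29 to 10.59 in the 3 WT mixtures and 8.13 to 8.32 in the KO mixtures, and Usp46 read 8.83 to 9.51 against 7.51 to 7.69. Usp49 read 9.41 to 9.68 against 8.36 to 8.96, and Usp25 read 6.40 to 6.92 against 5.77 to 5.84. Usp19 read 10.37 to 11.01 in WT and 11.22 to 11.36 in KO, and Usp36 read 5.11 to 5.40 against 5.72 to 5.93.

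Round spermatid markers were also lower in the KO round spermatids, and their part in these differences was not tested. The log2 of the summed signal of the 12 measured markers was 17.26 to 17.33 in WT and 17.01 to 17.07 in KO, and 2 of the 12 passed as lower. None of the 12 was undetected in either genotype. Of 9 measured spermatocyte markers 1 passed as higher, with a summed signal of 13.596 to 13.766 in WT and 13.771 to 13.950 in KO round spermatids. Of 10 measured macrophage markers, all 10 were detected on every KO round spermatid array and 6 on every WT one, with Cd14 and H2-Aa on no WT array, and their summed signal overlapped (10.75 to 11.23 in WT and 10.70 to 12.23 in KO). Of these 10, 1 passed as higher. Of 6 measured Sertoli cell markers 2 passed as lower, with a summed signal of 11.90 to 12.41 in WT and 11.26 to 12.10 in KO. Of 4 measured peritubular and endothelial markers 1 passed as lower, while their summed signal was higher in KO (10.97 to 11.38 in WT and 11.76 to 12.21 in KO). The single measured erythroid marker, Hba-a1, gave -1.14 and did not pass. The part of these cell types was not tested either.

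The other 27 members differed by -0.69 (Usp50) to 0.90 (Usp33) and did not pass. Of all 33 members, 22 had a positive difference, or 66.7%, against 59.2% of all features. In 17 members the 3 KO arrays did not overlap the 3 WT arrays, 11 of them higher and 6 lower, against 43.4% of all features (26.1% higher and 17.3% lower). Usp33, which with Usp20 acts on cell-surface receptors, read 6.91, 6.20 and 5.50 in WT and 7.34, 6.67 and 7.30 in KO. The groups overlapped and the difference of 0.90 ± 0.31 did not pass (SE, adjusted p = 0.0698, limma), while its other probe gave 1.06 ± 0.23 and passed (adjusted p over probes = 0.00977). Usp8, an enzyme of endosomal sorting that is abundant in mouse testis, gave 0.69 ± 0.26 with groups that did not overlap (adjusted p = 0.0974, limma). When limma was fitted to the round spermatid arrays only, Usp8 (adjusted p = 0.0272) and Usp50 (-0.69, adjusted p = 0.023) passed.

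**Figure D2:**
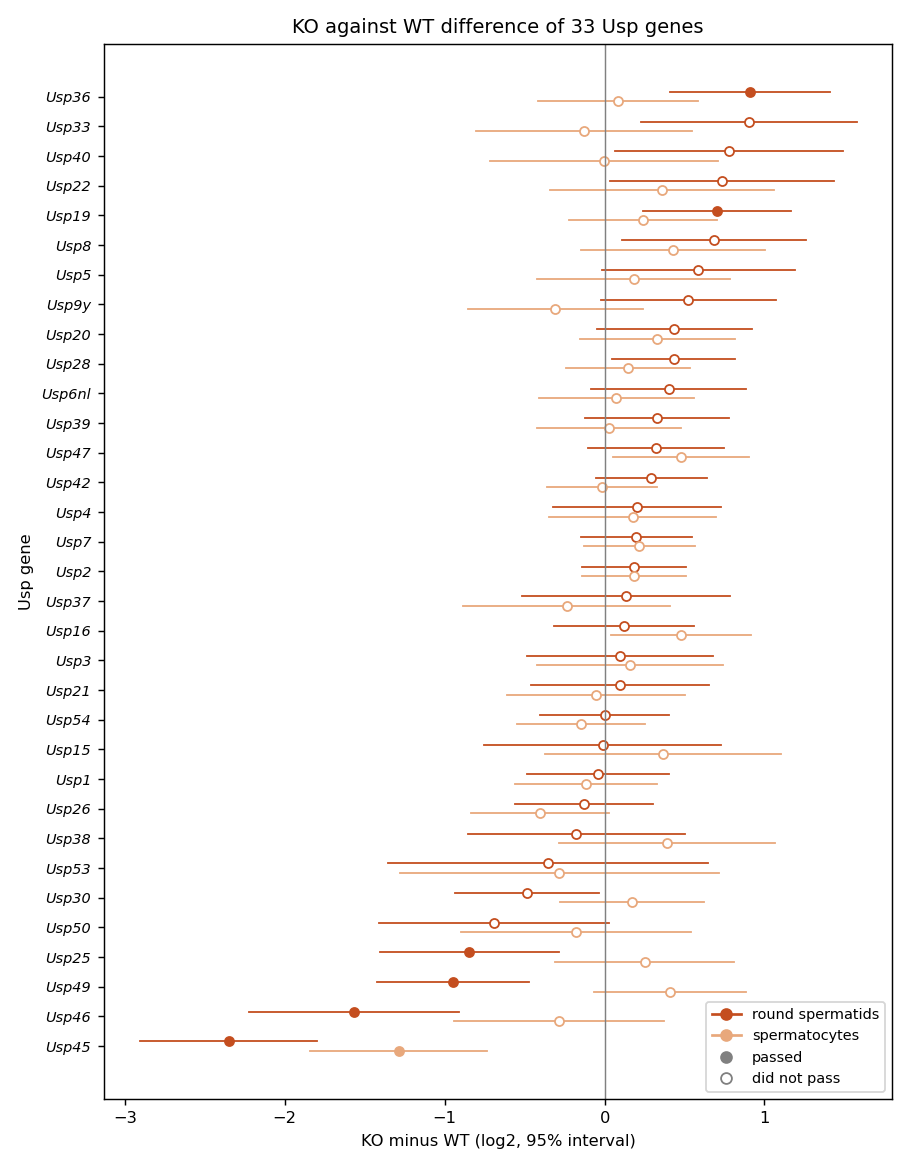
KO minus WT difference (log2) of the 33 tested Usp genes, ordered by the round spermatid value, with 95% intervals; dark points are round spermatids, pale points spermatocytes, and filled points passed. Usp45 stands lowest at both stages, at -2.35 and -1.29, and most of the other intervals cross 0.

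In spermatocytes, the stage before, 1 of 33 members passed, against 0.834% of all features (0.645% lower). This was Usp45 again. It read 7.57, 7.50 and 8.27 in KO and 8.78, 8.89 and 9.54 in WT spermatocytes, with no overlap. The difference was -1.29 ± 0.26 (SE, n = 3, adjusted p = 0.0374, limma), or 2.44-fold lower. The call was lost in 8 of 15 alternative settings, with differences of -1.53 to -0.96 and adjusted p up to 0.274. It was lost without WT replicate 2 (-1.38, adjusted p = 0.0728) or 3 (-1.05, 0.122) and without KO replicate 1 (-1.18, 0.0995) or 2 (-1.15, 0.162). In the mixtures Usp45 read 8.09 to 8.12 in KO and 8.88 to 9.34 in WT.

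The other 32 members differed by -0.40 to 0.48 in spermatocytes and did not pass, and 3 of 33 had arrays that did not overlap, against 9.2% of all features. These were Usp45 (lower), Usp2 (0.18 ± 0.15, adjusted p = 0.934) and Usp47 (0.48 ± 0.20, adjusted p = 0.637). The median over members was 0.15 and that over all features -0.00. Usp46, Usp49 and Usp25 gave -0.29, 0.41 and 0.25 at this stage, with overlapping arrays for Usp46 (7.64, 7.51 and 8.57 in WT, and 7.16, 7.63 and 8.06 in KO), for Usp49 (7.31, 7.31 and 7.88, and 7.81, 7.81 and 8.11) and for Usp25 (5.13, 4.89 and 5.17, and 4.86, 5.30 and 5.78). Usp25 was detected on 0 of 3 WT and 1 of 3 KO spermatocyte arrays, so its difference at this stage is not well measured.

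The KO spermatocyte mixtures stood apart from the arrays of the RNA they were made from. Over the 33 members, the median difference of a mixture from the mean of its parts was 0.51, 0.24 and 0.33 in the 3 KO spermatocyte mixtures, and between -0.24 and 0.14 in the other 9 mixtures. For Usp19 the KO spermatocyte mixtures read 12.13 to 12.37, above all 3 direct arrays (11.48, 11.21 and 11.88). With mixtures counted as replicates 14 members passed in spermatocytes, 12 of them higher. The share of all features that passed that way is not given here. The mixtures stayed out of the tests because they hold the same RNA as the direct arrays.

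Whether the KO difference changed between the stages was tested directly, as the round spermatid difference minus the spermatocyte difference. No member passed with limma, against 1.49% of all features, and 8 of 33 had an unadjusted p under 0.05, against 14.9% of all. Usp49 came nearest, at -1.36 ± 0.31 (SE, adjusted p = 0.0543). Within a genotype, spermatocyte and round spermatid arrays of 1 number share a fractionation, and with a replicate block for the fractionation the Usp49 value passed (adjusted p = 0.0358 with a random block and 0.041 with a fixed block). Without WT spermatocyte replicate 3, Usp49 (-1.55, adjusted p = 0.0129) and Usp46 (-1.61, 0.0319) passed, and without WT round spermatid replicate 1 Usp49 passed (-1.48, 0.0415). With all direct arrays Usp46 gave -1.28 (adjusted p = 0.189), Usp25 -1.10 (0.187), Usp45 -1.06 (0.194), Usp33 1.03 (0.297), Usp36 0.83 (0.262) and Usp9y 0.83 (0.296). The Usp25 value rests on spermatocyte readings near background. A KO effect on Usp46, Usp49 or Usp25 that belongs to round spermatids alone was not shown by the unblocked test on all direct arrays.

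The normal course of the family was read from WT round spermatids against WT spermatocytes. Of 33 members 24 passed, or 72.7%, against 60.3% of all features. They divided evenly, with 12 higher in round spermatids (28.4% of all features) and 12 lower (31.9% of all). The median over members was 0.11 and that over all features -0.12. The rise of Usp50 was 4.12-fold, and the falls of Usp40 and Usp5 ended near background, where their folds are not well measured. Arrays of the stages did not overlap in 25 members (67.7% of all features).

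Markers of other cell types differed between the stages as well, and their part in the stage differences was not tested. All 5 measured Leydig cell markers were lower in WT round spermatids (median -3.71), with a log2 of their summed signal of 13.89 to 15.04 in spermatocytes and 8.76 to 11.51 in round spermatids, where Star, Cyp11a1 and Hsd17b3 were detected on no array. Of 10 macrophage markers 8 were higher in round spermatids (median 1.49), with a summed signal of 8.69 to 9.56 and then 10.75 to 11.23. Of 6 Sertoli cell markers 4 were higher (median 0.88, from 10.78 to 11.29 and then 11.90 to 12.41), as were 2 of 4 peritubular and endothelial markers (9.80 to 11.68 and then 10.97 to 11.38) and Hba-a1 (3.69). In the KO 3 of the 5 Leydig markers were lower (median -3.22), and 9 of 10 macrophage markers (2.03), 5 of 6 Sertoli markers (1.44), 1 of 4 peritubular and endothelial markers (-0.18) and Hba-a1 (2.74) were higher.

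**Figure D3:**
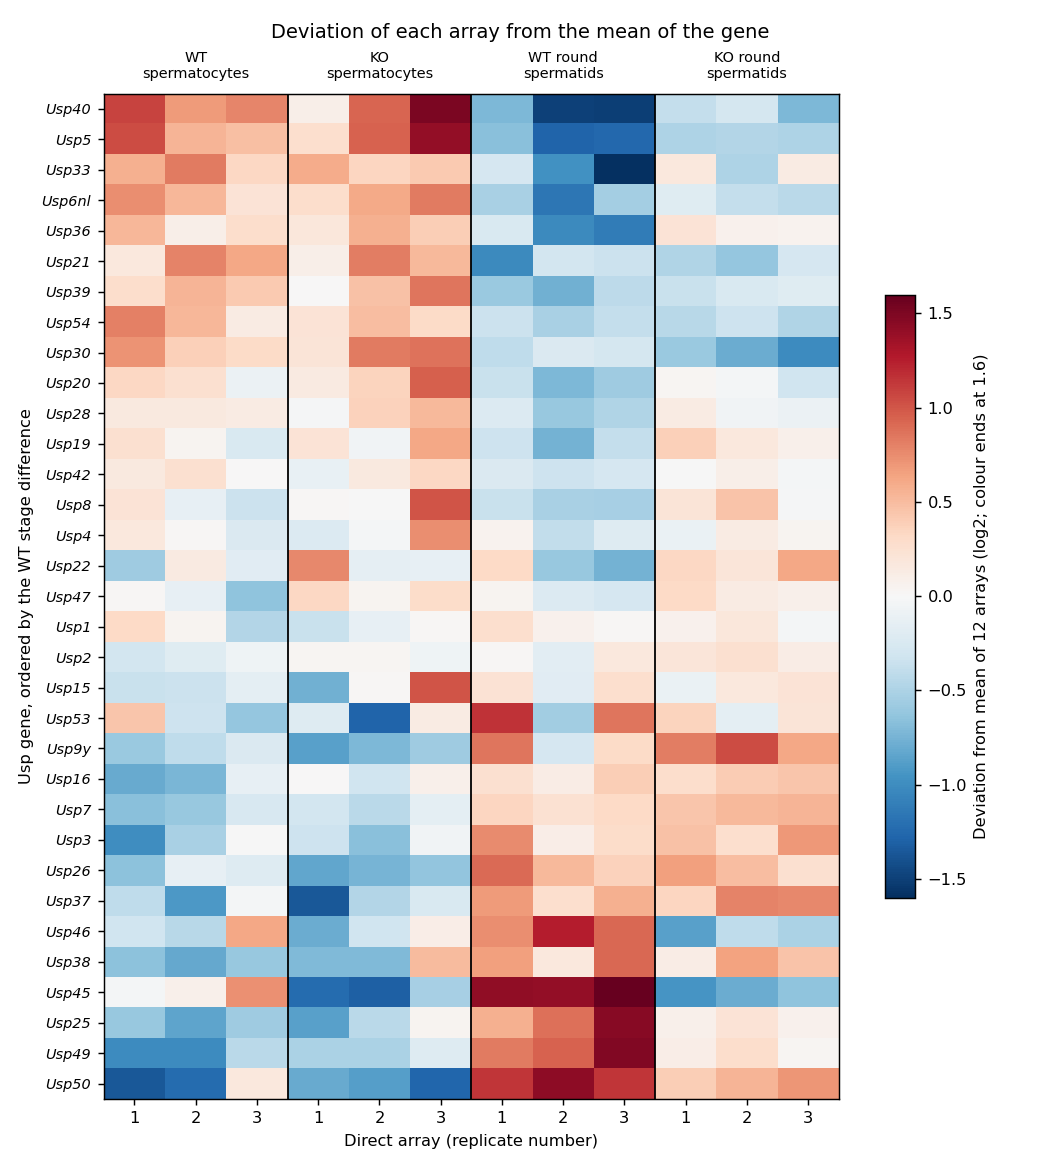
Deviation (log2) of each direct array from the gene's mean over 12 arrays, for the 33 tested Usp genes ordered by the WT stage difference; columns are replicates 1 to 3 of each group and the colour scale ends at 1.6. Genes at the top are high in spermatocytes and those at the bottom high in WT round spermatids, and Usp45, Usp46, Usp25 and Usp49 are pale or blue in KO round spermatids.

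Of 7 tested histone deubiquitinases 5 rose at their brightest probe (28.4% of all features rose), 1 fell (31.9% of all) and Usp22, the protease of the SAGA coactivator, did not pass (-0.15, adjusted p = 0.702). In 4 of the 5 risers another probe had the opposite sign. It passed as lower in Usp46 (-1.76) and Usp7 (-1.004), and did not pass in Usp3 (-0.10) and Usp16 (-0.13), so that the direction of Usp46 and Usp7 depends on the probe. Usp49 rose from 7.31, 7.31 and 7.88 in spermatocytes to 9.14, 9.26 and 9.79 in round spermatids, with no overlap and a difference of 1.89 ± 0.22 (SE, n = 3, adjusted p = 2.46e-05, limma). Usp46 rose by 1.02 ± 0.30 (adjusted p = 0.0111) and Usp3, an H2A deubiquitinase, by 0.89 ± 0.27 (adjusted p = 0.0118). Usp7, best known for holding Mdm2 and p53 levels, read 10.45, 10.51 and 10.86 in spermatocytes and 11.47, 11.36 and 11.44 in round spermatids, a rise of 0.82 ± 0.16 (SE, adjusted p = 0.00082, limma). Usp16, an H2A deubiquitinase, rose by 0.81 ± 0.20 (adjusted p = 0.00391). Usp21, also an H2A deubiquitinase, fell, from 7.72, 8.35 and 8.17 to 6.53, 7.26 and 7.21, a difference of -1.08 ± 0.26 (SE, adjusted p = 0.00293, limma).

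Among genes known for expression in testis, Usp50 read 10.10, 10.22 and 11.62 in spermatocytes and 12.60, 12.88 and 12.59 in round spermatids. All round spermatid arrays lay above all spermatocyte arrays, and the rise was 2.04 ± 0.33 (SE, n = 3, adjusted p = 0.000223, limma), with 2.50 from its other probe. Usp26, an X-linked gene of the testis, rose by 0.93 ± 0.20 (adjusted p = 0.00153), and Usp42 fell by 0.41 on the log2 scale (adjusted p = 0.0384). With a replicate block for the fractionation Usp42 did not pass when the block was fixed (adjusted p = 0.0822) and passed when it was random (adjusted p = 0.032). The 4 Usp17-like genes on the array and Usp29 were not above background.

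Of 10 tested members with roles at endosomes, receptors or in signalling, 3 rose (28.4% of all features rose), 2 fell (31.9% of all) and 5 did not pass. Usp25 rose from 5.13, 4.89 and 5.17, detected on none of the 3 spermatocyte arrays, to 6.30, 6.62 and 7.19, which is at least 2.3-fold (fitted difference 1.64 ± 0.26, adjusted p = 0.000186, limma). Usp38, which acts in human cells on the antiviral signalling kinase TBK1, rose by 1.27 ± 0.31 (adjusted p = 0.00359). It was detected on 1 of 3 spermatocyte arrays, so the size of its rise is not well measured, and its other probe had the opposite sign. Usp33 fell from 7.74, 8.004 and 7.50 to 6.91, 6.20 and 5.50, a difference of -1.54 ± 0.31 (SE, adjusted p = 0.00101, limma), and its other probe gave -1.56. Its relative Usp20 fell by 0.70 on the log2 scale (adjusted p = 0.0159). Usp19 gave -0.51 ± 0.21 (adjusted p = 0.0536) and passed with a random replicate block (adjusted p = 0.0455) or without WT spermatocyte replicate 3 (-0.64, adjusted p = 0.0294). Usp8 and Usp15 gave -0.38 (adjusted p = 0.229) and 0.39 (adjusted p = 0.344).

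Usp45, in no role group here, rose by 1.29 ± 0.26 (adjusted p = 0.00088), from 8.78, 8.89 and 9.54 to 10.23, 10.21 and 10.65. Of 4 members with roles in DNA repair or the cell cycle, Usp37, which stabilizes cyclin A, rose by 0.96 ± 0.30 at its brightest probe (adjusted p = 0.0148), while its other probe passed as lower (-1.18, adjusted p over probes = 0.0037). Usp28, a stabilizer of Myc, fell by 0.58 on the log2 scale (adjusted p = 0.0136), while Usp1, which acts on Fancd2 and Pcna, gave 0.15 (adjusted p = 0.538).

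The group with roles in ubiquitin recycling had 1 tested member of 3 listed, Usp5. The splicing, nucleolus and mitochondrion group had 3 tested members. Usp5, which takes apart free ubiquitin chains, read 7.67, 7.18 and 7.11 in spermatocytes and 5.96, 5.35 and 5.37 in round spermatids, where 1 of 3 arrays detected it. The groups lay more than 1 unit apart, with a fitted difference of -1.76 ± 0.28 (SE, n = 3, adjusted p = 0.000188, limma). All 3 members of the splicing, nucleolus and mitochondrion group fell, in a comparison in which 31.9% of all features fell. Usp39, a spliceosome protein without protease activity, fell by 1.01 on the log2 scale (adjusted p = 0.0012) and Usp30, which sits on the mitochondrial outer membrane and opposes Parkin, by 0.77 (adjusted p = 0.0064). Usp36 was detected on every spermatocyte array (6.33, 5.89 and 6.08) and on no round spermatid array, a fall of at least 1.24-fold (adjusted p = 0.00133).

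Usp40 fell from 7.66, 7.26 and 7.36 to 5.86, 5.09 and 5.08, with 1 of 3 round spermatid arrays detecting it. The fitted difference was -2.08 ± 0.33 (SE, n = 3, adjusted p = 0.000185, limma). Because 2 of 3 round spermatid arrays did not detect Usp40 or Usp5, the sizes of these falls cannot be ranked. Usp6nl, the Rab5 regulator, fell by 1.24 on the log2 scale (adjusted p = 0.000472) and Usp54 by 0.91 (adjusted p = 0.00107).

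In 11 of the 12 rising members WT spermatocyte replicate 3 was the highest of the 3 WT spermatocyte arrays. The mean of the round spermatid markers was also highest there, at 11.90 against 10.97 and 11.21 in replicates 1 and 2. The part of this array in the stage differences was not tested by that measure. Without it 25 members passed, 12 higher and 13 lower, and the share of all features that passed that way is not given here.

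Single arrays decided 7 of the 24 WT stage calls. Without spermatocyte replicate 1 the calls of Usp3 (0.65, adjusted p = 0.057), Usp9y (0.62, 0.0865), Usp20 (-0.62, 0.0575) and Usp42 (-0.41, 0.0817) were lost. Without spermatocyte replicate 2 those of Usp46 (0.82, 0.0543), Usp37 (0.72, 0.0727), Usp9y (0.71, 0.0611), Usp20 (-0.66, 0.0529) and Usp42 (-0.36, 0.129) were lost. Without round spermatid replicate 1 those of Usp3 (0.71, 0.0521), Usp9y (0.43, 0.119) and Usp42 (-0.44, 0.06) were lost. Without round spermatid replicate 2 those of Usp20 (-0.62, 0.0578), Usp28 (-0.49, 0.0548) and Usp42 (-0.39, 0.0949) were lost and Usp53 was gained (1.18, 0.0286). Without round spermatid replicate 3 those of Usp9y (0.70, 0.0631) and Usp42 (-0.42, 0.0796) were lost. The other 17 WT stage calls held with any 1 WT array left out.

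The same stage comparison within the KO took its differences from separate arrays. Its SE came from the spread over all 12 direct arrays, which the WT comparison shares. In the KO, 14 of 33 members passed, 42.4%, against 50.4% of all features, with 6 higher (26.4% of all) and 8 lower (24% of all). All 14 had also passed in WT, in the same direction, so that they made up 14 of the 24 WT calls. The share of all features that passed in both genotypes is not given here, so this overlap shows nothing particular to the family. The median over members was -0.05 and that over all features 0.01, and arrays did not overlap in 19 members (57.9% of all).

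The members that rose in the KO were Usp9y (1.54 ± 0.25, adjusted p = 0.000448), Usp50 (1.53 ± 0.33, 0.00244), Usp37 (1.33 ± 0.30, 0.00313), Usp26 (1.21 ± 0.20, 0.000492), Usp3 (0.83 ± 0.27, 0.0214) and Usp7 (0.80 ± 0.16, 0.00155). Other probes of Usp37 (-1.06, adjusted p over probes = 0.00939) and Usp7 (-1.22, 0.00046) passed as lower, so that the direction of these genes depends on the probe in the KO too. The largest falls were those of Usp30 (-1.43 ± 0.21, 0.000232), Usp5 (-1.35 ± 0.28, 0.00178) and Usp40 (-1.30 ± 0.33, 0.00588), followed by Usp21 (-0.93), Usp6nl (-0.91), Usp54 (-0.76), Usp39 (-0.71) and Usp20 (-0.60, adjusted p = 0.0409). With a fixed replicate block for the fractionation Usp20 no longer passed (adjusted p = 0.0652), while Usp49 (0.54, adjusted p = 0.0371, and 0.0439 with a random block and 0.039 with a block by number) and Usp38 (0.71, adjusted p = 0.048) did. Leaving out 1 KO array lost the call of Usp20 in 5 of 6 cases (differences of -0.67 to -0.36), that of Usp3 without spermatocyte replicate 2 (0.67, adjusted p = 0.0824) or round spermatid replicate 3 (0.72, 0.0787), and that of Usp39 without spermatocyte replicate 3 (-0.50, 0.052). Without spermatocyte replicate 3, Usp25 (0.77, adjusted p = 0.0287) and Usp38 (1.11, 0.00402) were gained.

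The 10 members that passed in WT and not in KO (share of all features not given here) include all 4 that were lower in KO round spermatids. Their WT and KO stage differences were 1.29 and 0.23 for Usp45, 1.02 and -0.26 for Usp46, 1.89 and 0.54 for Usp49, and 1.64 and 0.54 for Usp25. Usp36 gave -1.10 in WT and -0.27 in KO. The KO against WT comparison and the WT stage comparison share the WT round spermatid arrays, so these values are not independent, and the direct test of whether the stage changes differ is the one given above, in which none of the 5 passed without a block.

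**Figure D4:**
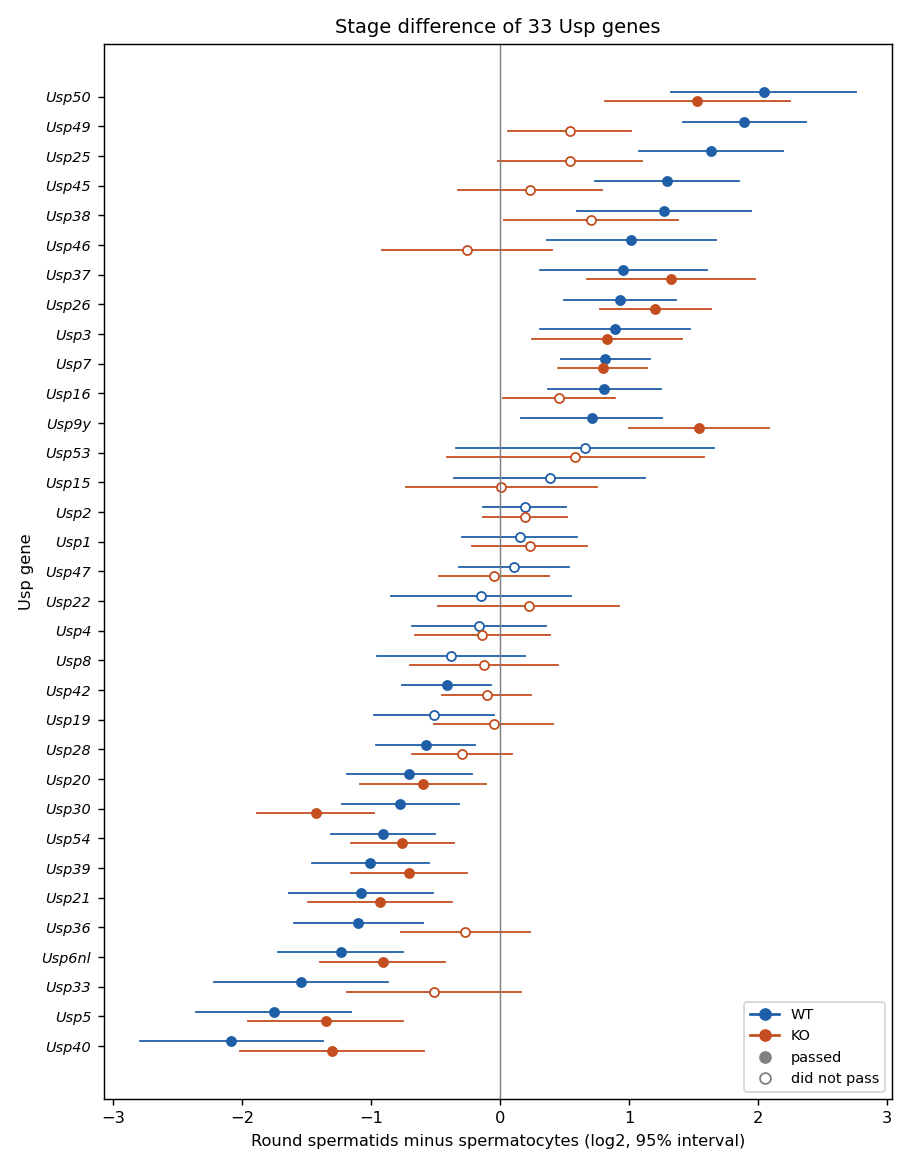
Round spermatids minus spermatocytes (log2, with 95% intervals) for the 33 tested Usp genes, in WT and KO, ordered by the WT value; filled points passed. The fitted WT values run from -2.08 (Usp40, detected on 1 of 3 WT round spermatid arrays) to 2.04 (Usp50), and Usp46 is the only called WT riser with a KO value below 0.

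Of the 5 members on the sex chromosomes, only Usp26 (X) and Usp9y (Y) were above background. Usp26 read 7.17, 7.69 and 7.61 in WT spermatocytes and 8.72, 8.34 and 8.20 in WT round spermatids, with no overlap. In the KO it read 6.99, 7.08 and 7.20, and then 8.48, 8.32 and 8.08. Usp9y, the Y-linked counterpart of Usp9x, read 7.08, 7.27 and 7.44 in WT spermatocytes and 8.53, 7.41 and 7.99 in WT round spermatids, a rise of 0.71 ± 0.25 with groups that overlapped by 1 array (adjusted p = 0.0268, limma). In the KO it read 6.81, 6.96 and 7.11 and then 8.49, 8.72 and 8.29, with no overlap. The KO against WT differences in round spermatids were -0.13 for Usp26 (adjusted p = 0.7) and 0.52 for Usp9y (adjusted p = 0.169). Usp9x, Usp11 and Usp27x, all X-linked, were detected on none of the 12 direct arrays.

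Probes of a gene often disagreed about the stage difference. Of 33 tested members 19 had more than 1 probe above background, and in 3 of them probes passed in opposite directions. Usp46 rose by 1.02 at its brightest probe and fell by 1.76 on the log2 scale at the other, from 8.61, 8.95 and 8.63 to 7.01, 6.74 and 7.17. Usp37 gave 0.96 and -1.18, the second from 8.57, 8.73 and 8.21 to 7.57, 7.23 and 7.19. Usp7 gave 0.82, -1.004 and -0.30, of which the last did not pass. In a further 9 genes some probes passed and others did not, in 4 all passed the same way, and in 3 none passed.

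**Figure D5:**
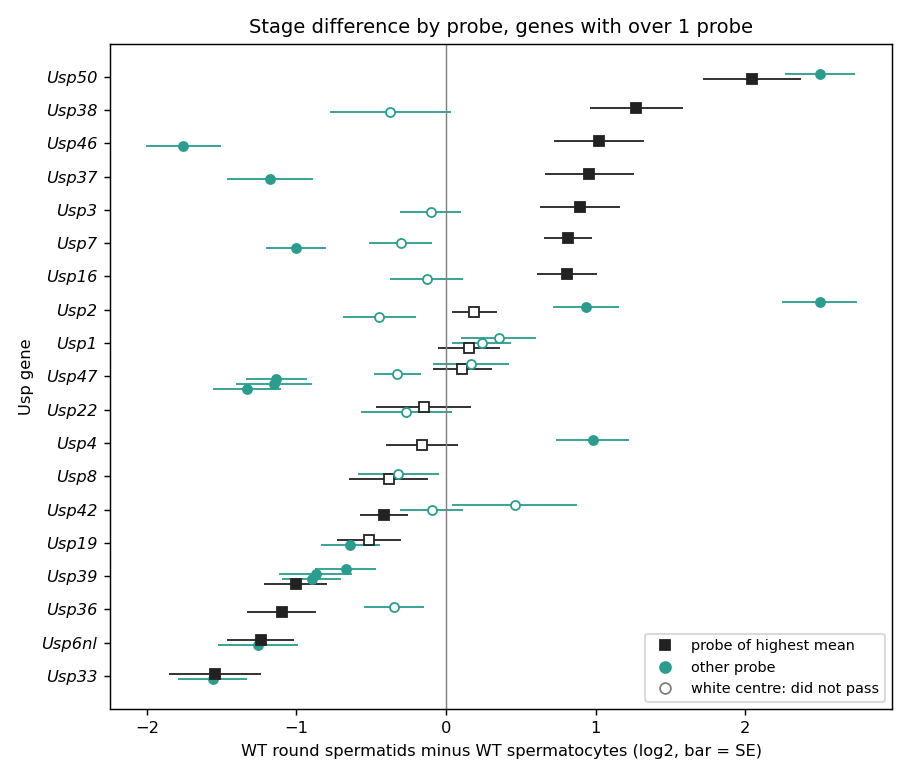
WT round spermatids minus WT spermatocytes (log2, bars are SE) at every probe above background, for the 19 Usp genes with more than 1. Squares are the brightest probe of the gene, used elsewhere, circles the other probes, and white centres did not pass; Usp46, Usp37 and Usp7 have filled points on both sides of 0.

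Among genes without a call at the brightest probe, Usp2 and Usp47 held the strongest calls at others. Usp2, whose loss lowers male fertility in mice, gave 0.19 ± 0.15 at its brightest probe (adjusted p over probes = 0.301). A probe listed under another RefSeq transcript of the gene rose by 2.50 ± 0.25 (SE, adjusted p over probes = 9.16e-06, limma). Probes listed under the same transcript as the brightest disagreed too. They gave 0.93 ± 0.22, which passed (adjusted p over probes = 0.00291), and -0.45 ± 0.24, which did not (0.13). Usp47, which acts in base excision repair, gave 0.11 at its brightest probe, while 3 of its other probes fell by 1.14, 1.15 and 1.33 on the log2 scale. Usp4 gave -0.16 at its brightest probe and 0.98 at the other (adjusted p over probes = 0.00392). In KO against WT round spermatids, Usp3 gave 0.09 at its brightest probe and 0.73 at the other (adjusted p over probes = 0.0329). Whether such pairs read different transcript ends, or 1 of them reads something else, was not tested.

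Another 8 members passed in no comparison at their brightest probe: Usp1, Usp2, Usp4, Usp8, Usp15, Usp22, Usp47 and Usp53, with WT stage differences of -0.38 to 0.66. The 19 members below the detection filter were Usp9x, Usp10, Usp11, Usp12, Usp13, Usp14, Usp17lb, Usp17lc, Usp17ld, Usp17le, Usp18, Usp27x, Usp29, Usp31, Usp34, Usp35, Usp43, Usp44 and Usp48. Of these 16 were detected on 0 of the 12 direct arrays, and Usp12, Usp14 and Usp31 on 1 or 2. On the direct arrays their signals lay between 4.36 and 5.87, not well above background, which sets no limit on the RNA that other probes might find. Usp14, the proteasome's own deubiquitinase, and Usp10, a partner of G3bp1, were among them. Usp14 was detected on every spermatocyte and KO round spermatid mixture, at 5.70 to 6.48. With no detection filter Usp10 passed in the stage comparison of WT (-0.59, adjusted p = 0.0013, limma) and KO (-0.66, 0.00124). Usp14 passed in KO (0.66, 0.0106), Usp9x in both genotypes and Usp31 in WT. These stage values rest on signals not well above background.

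The rest of the ubiquitin system was set beside the family. Of 30 tested deubiquitinases of other families 2 passed in KO against WT round spermatids, both higher, where 14.9% of all features passed. These were Cyld (0.84 ± 0.22, adjusted p = 0.0241), which trims linear and lysine-linked chains in immune signalling, and Otulin (0.61 ± 0.18, 0.0394), which is specific for linear chains. In the WT stage comparison 6 of these 30 rose and 12 fell (28.4% and 31.9% of all features), and in the KO 7 rose and 7 fell (26.4% and 24% of all). Stambp, an endosomal deubiquitinase, fell by 3.31 on the log2 scale in WT and fell by 3.10 in KO. These falls were larger than the fitted fall of any tested Usp member. In WT the falls of Usp40, Usp5 and Usp36 ended near background, so their true sizes cannot be ranked against it. Mindy1, which trims chains from their far end, fell by 2.12 in WT and fell by 1.90 in KO.

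Of 24 tested E2 enzymes 3 passed in KO against WT round spermatids, a share near the 14.9% of all features. Ube2g2, which serves degradation of proteins from the endoplasmic reticulum, was lower by 1.70 on the log2 scale (fitted difference -1.70 ± 0.25, adjusted p = 0.000717) and had risen by 2.67 ± 0.25 in the WT stage comparison (adjusted p = 7.19e-06), which shares the WT round spermatid arrays. Ube2e3 (0.79 ± 0.16, 0.00702) and Ube2z (at least 1.66-fold, 0.0034) were higher. In the WT stage comparison 5 E2 enzymes rose and 12 fell, where 28.4% of all features rose and 31.9% fell.

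Of 12 tested ligases of histones, Ddb2 (1.05 ± 0.24, adjusted p = 0.0128) and Bard1 (0.62 ± 0.19, 0.0446) were higher in KO round spermatids. Among 16 tested partners of Usp proteins, Sart3, which recruits Usp4 and Usp15, was higher (1.04 ± 0.24, 0.0147), and Wdr20, an activator of Usp46, was not called (0.12, adjusted p = 0.63) though it rose in the WT stage comparison (0.76 ± 0.15, 0.00082). Atxn7, the subunit that holds the Usp22 module in SAGA, fell by 2.09 on the log2 scale in the WT stage comparison (adjusted p = 1.93e-05). In KO against WT spermatocytes limma called 0 of the 83 tested genes of these lists, against 0.834% of all features, and 1 had an unadjusted p under 0.05, against 6.89% of all.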

How the data were processed

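Per the labels, total RNA was hybridised to Illumina bead arrays, and the authors deposited intensity values with a detection p-value per probe and array, not background-corrected so far as the values show. A second deposited intensity table matched a quantile normalization of the first (median log2 difference 9.41e-05). Scanner software and build are not given in the sources used here.

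From the raw intensities, neqc (limma 3.58.1, R 4.3.3; normexp correction from the detection p-values, quantile normalization, offset 16, log2) was run over 24 arrays. A probe was kept where its deposited detection p-value was under 0.01 on 3 or more of 12 direct arrays (17401 of 45281, 38.4%), and the probe of highest mean stood for a gene, leaving 10076 named genes and 2629 unnamed probes. Of all probes, 34885 had 1 gene in the annotation table, 18 several and 10378 none listed. A model of the 4 group means was fitted with lmFit and eBayes to the 12 direct arrays (8 residual degrees of freedom, no replicate block), with 5 contrasts, each adjusted by Benjamini-Hochberg over 12705 features. "At least" folds compare the bright group's mean with the higher of a dim probe's own signal and the lowest detected signal on each array.

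Residuals of same-numbered arrays of a genotype's stages, which the labels trace to a shared fractionation, correlated at -0.20 to 0.41, and other numbers at -0.45 to 0.25. KO and WT arrays of 1 number share no animals, and correlated at -0.34 to 0.08. The number of arrays limits the precision. Named were Nutm1, members that passed in KO against WT or in its change between stages, the 10 largest WT stage rises and falls, sex-linked members, and up to 4 genes per other list and contrast with the smallest p; further members are given to account for all of them. The members and gene lists were chosen with earlier results of these data known. Scripts were tested on simulated data. Alternatives were another scaling, the authors' processed table, other filters, array weights, all arrays, blocks, other probes and left-out replicates.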

Additional observations from a re-analysis of the deposited data

How the results depend on the processing

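In KO against WT round spermatids, where 6 members passed, 3 passed with cyclic loess scaling, 13 with array weights and 14 with all 6 arrays per group, while leaving out 1 array gave 2 to 9. There Usp25 and Usp36 did not pass with the deposited processed values, and Usp25 and Usp19 did not pass with no detection filter. In spermatocytes, where 1 passed, the count was 0 with cyclic loess, with the deposited processed values, with no detection filter and with only the groups compared, 14 with all 6 arrays, and 0 to 1 with 1 array left out. For the change between stages, where 0 passed, the count was 1 with the deposited values and with detection on all 3 arrays of a group, 5 with array weights, 6 with all 6 arrays and 0 to 2 with 1 array left out. A replicate block by number, or by fractionation as a random or fixed term, called 1 there, Usp49 each time; the numbers do not pair KO with WT, and with the block by number Usp19 in KO against WT round spermatids did not pass (adjusted p = 0.0516), nor did the stage calls of Usp42 in WT (0.0558) and Usp20 in KO (0.0614). Apart from these and the block values beside the results, the block changed no other call of a named member. The WT stage count of 24 ran from 22 to 27 over the other settings and 19 to 25 with 1 array left out. The KO stage count of 14 became 26 with all 6 arrays and was 12 to 14 with 1 array left out. All 6 arrays count mixtures as replicates, so their p-values are too small. The share of all features that passed under each alternative setting is not set beside these counts. They describe how the calls moved and show nothing particular to the family. Other probes of a gene reversed the WT stage difference of Usp3 (-0.10), Usp7 (-1.004 and -0.30), Usp16 (-0.13), Usp37 (-1.18), Usp38 (-0.37), Usp42 (0.46) and Usp46 (-1.76), and the KO stage difference of Usp7 (-1.22 and -0.40) and Usp37 (-1.06). The cause of these changes was not tested. Usp5, Usp25, Usp33, Usp36, Usp38 and Usp40 were not detected on every array of at least 1 WT group, which limits their stage differences, and fold changes near background are understated.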

Other observations

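The protein-coding genes next to the 6 members called in KO against WT, by their order in the GRCm38.p6 annotation, were looked up after the calls were known. Of these neighbours 10 were tested. In KO round spermatids Rasl11b, next to Usp46, was higher (0.74, adjusted p = 0.039, limma) and Med20, next to Usp49, was higher (0.62, adjusted p = 0.0394, limma), while Usp46 and Usp49 were lower. Their other neighbours gave -0.37 (Spata18, next to Usp46, adjusted p = 0.477) and -0.31 (Tomm6, next to Usp49, adjusted p = 0.376). Pnisr, next to Usp45, gave 0.40 (adjusted p = 0.281) and Cxadr, next to Usp25, gave 0.61 (adjusted p = 0.0834). The neighbours of Usp19 were Lamb2 (0.95, adjusted p = 0.0785) and Qars (-0.12, adjusted p = 0.712), and those of Usp36 were Cyth1 (0.67, adjusted p = 0.12) and Timp2 (0.41, adjusted p = 0.761).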
